A study of Mus musculus with 6 samples.

Results

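The genes described are 33 that encode the mitochondrial machinery for burning fatty acids and for the tricarboxylic acid (TCA) cycle, chosen by name from the 24539 genes of the deposited table. All 33 were listed and all 33 had enough counts to be tested. They fall into 17 genes of fat oxidation, 15 of pyruvate dehydrogenase and the TCA cycle, and Ppara, a transcription factor. The tissue was eWAT, epididymal white fat, a visceral depot, taken from 3 Jmjd8-KO mice and 3 wild-type (WT) mice. Both groups were of the C57BL/6 strain, both were kept on a high-fat diet (HFD), and neither received a further treatment. Jmjd8 encodes a JmjC-domain protein of the endoplasmic reticulum. The knockout allele, whether the deletion is confined to a tissue, the ages of the mice and the length of the diet are not stated in the available descriptions.

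Long-chain fatty acids enter mitochondria as carnitine esters, made by CPT1 on the outer membrane, carried across by a translocase and turned back to acyl-CoA by CPT2. Inside, each round of beta-oxidation takes an oxidation, a hydration, a second oxidation and a thiolysis, and releases acetyl-CoA. Electrons from the first oxidation pass through the electron transfer flavoprotein to the respiratory chain. Acetyl-CoA, also made from pyruvate by pyruvate dehydrogenase, enters the TCA cycle by citrate synthase. White adipocytes store far more fat than they oxidise, and also export citrate from this cycle for fatty acid synthesis.

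Total counts lay between 17598696 and 20598473 per library, and single members had between 117 counts (Ppara) and 10894 counts (Acadm) in a library. Jmjd8 itself stood at 39.4, 57.7 and 42.3 CPM (each library's counts scaled to one common depth with TMM factors) in Jmjd8-KO, against 112, 116 and 111 CPM in WT, with values here and below listed for replicates 1 to 3. It was lower in the knockout mice (log2 fold change -1.28, SE 0.144, adjusted p = 0.0193), although leaving out a single mouse gave an adjusted p of 0.058 to 0.137, except for Jmjd8-KO replicate 2, where it was 0.00101. All 13 adipocyte markers were found in every library. Summed over 9 brown or beige adipocyte markers, the knockout mice had 34.3 to 37.5 CPM and the wild-type mice 41.7 to 45.6 CPM. Of the 7 that were tested, only Otop1 passed, as lower, with a mean of 11.8 CPM for the knockout mice against 18.7 CPM. The log2 fold changes of these 7 were positive in 3 and negative in 4, with a median of -0.04, so the lower sum was not shared by all of them. Ucp1, which defines brown fat, stayed at or below 0.355 CPM. Libraries that stood apart were WT replicate 1, where 13 neuronal markers summed to 1050 CPM against 94.6 to 136 CPM in the Jmjd8-KO mice and 89.8 and 94.3 CPM in the other WT mice, and Jmjd8-KO replicate 2. Over all 14322 tested genes, Jmjd8-KO replicate 2 differed from the mean of Jmjd8-KO replicates 1 and 3 by a median of 0.266 on the log2 scale, where those 2 differed from each other by 0.0935. The counts of members passing, their counts by sign and their medians are given with and without both libraries. Member counts at an unadjusted p, counts of groups not overlapping, ratios, summed markers and the medians of other gene lists are over all 6 mice.

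By length-scaled level (RPKM, reads scaled to gene length and library depth, as the authors deposited it), the members ran from highly to barely expressed. The highest mean levels were those of Mdh2, mitochondrial malate dehydrogenase, at 175 ± 19.3 RPKM in Jmjd8-KO and 167 ± 5.16 RPKM in WT (SD, n = 3 each here and below), Acadm, medium-chain acyl-CoA dehydrogenase, at 176 ± 55.1 and 146 ± 8.38 RPKM, and Cs, citrate synthase, at 165 ± 7.80 and 155 ± 2.89 RPKM. In Jmjd8-KO mice these 3 did not differ in level beyond their spread. In WT mice none of the 3 overlapped, with Mdh2 at 162 to 172 RPKM, Cs at 151.8 to 156.8 RPKM and Acadm at 136 to 151.6 RPKM. The next members ran down to Dlat, at 28.6 ± 2.70 RPKM in Jmjd8-KO and 33.2 ± 2.11 RPKM in WT. At the low end were Hadhb with 11.4 ± 2.15 RPKM in Jmjd8-KO and 13.1 ± 1.24 RPKM in WT, and Suclg2 with 4.67 ± 0.319 and 4.77 ± 0.159 RPKM. Lower still were Cpt1b, the muscle-type CPT1, with 2.60 ± 0.395 and 3.95 ± 0.364 RPKM, and Ppara with 1.24 ± 0.212 and 0.844 ± 0.167 RPKM.

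**Figure D1:**
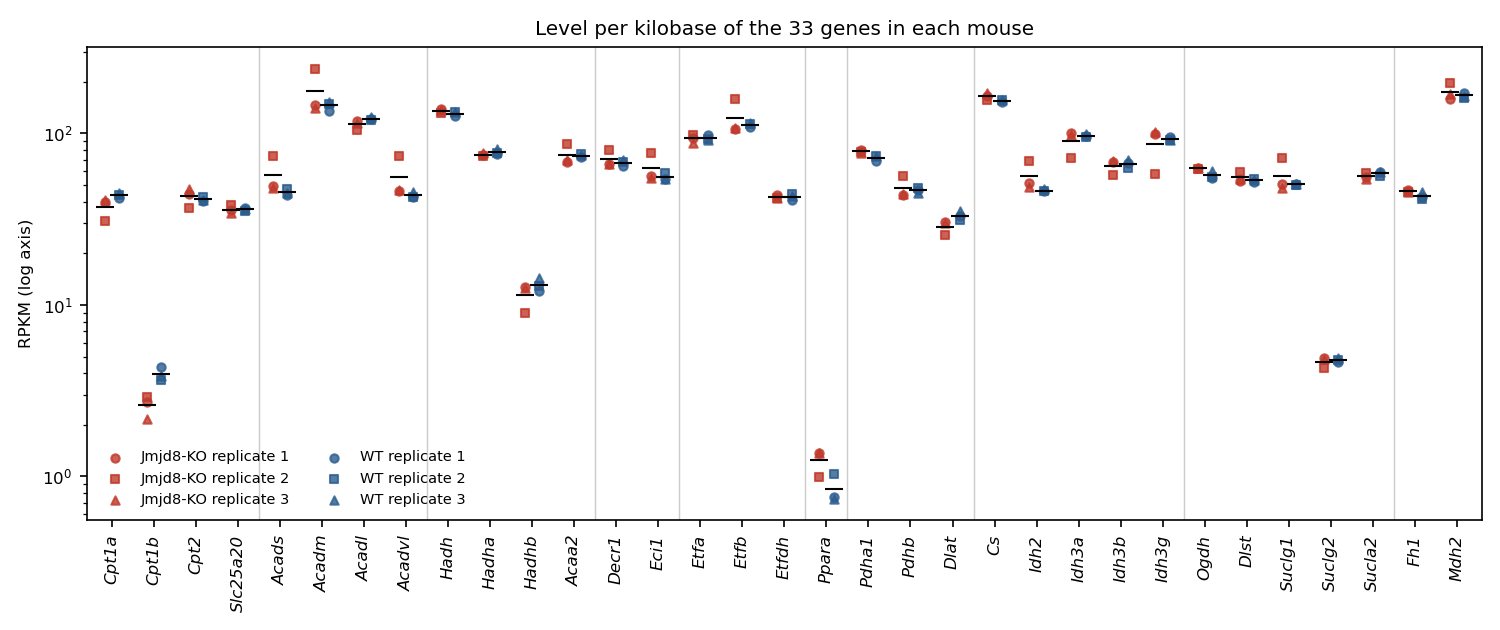
RPKM on a log axis of each of the 33 genes in each of 6 mice (Jmjd8-KO points left, WT points right, horizontal marks the group means; vertical lines part the groups of genes by role). Levels run from about 1 RPKM for Ppara to over 170 RPKM for Mdh2 and Acadm, and the square of Jmjd8-KO replicate 2 often lies away from the other knockout mice.

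None of the 33 genes passed the test between Jmjd8-KO and WT, at an adjusted p under 0.05 from edgeR over all genes, where 2.12% of all tested genes passed, 0.789% higher and 1.33% lower. DESeq2 also passed 0 members, against 7.25% of all genes, and limma-voom with sample quality weights passed 2, Ppara higher (adjusted p = 0.0102) and Cpt1b lower (adjusted p = 0.011), against 14.2% of all genes. At an unadjusted p under 0.05, 4 members were higher (Ppara, Pdha1, Idh2 and Ogdh) and 1 was lower (Cpt1b), or 15.2% of members against 19.1% of all tested genes, of which 8.99% were higher and 10.1% lower. The log2 fold changes were small, with a median of 0.12 over the 33 members against -0.01 over all tested genes, and ran from -0.54 for Cpt1b to 0.62 for Ppara. Their sign was positive in 26 of 33 members, or 78.8%, against 49.1% of all genes, and in 18 members under scaling to total counts, where the share of all genes was 36.7%. Without both libraries that stood apart the sign was positive in 22 members, or 66.7%, against 49.9% of all genes. The members' median was 0.062 without Jmjd8-KO replicate 2, 0.061 with limma-voom and 0.041 without both libraries that stood apart, where the medians of all genes were -0.02, -0.0083 and -0.00052. The values of the 3 mice did not overlap between groups in 9 members that were higher in Jmjd8-KO, against 14.0% of all genes, and in 1 that was lower, against 15.5%. The 9 were Acads, Acadvl, Hadh, Pdha1, Cs, Idh2, Ogdh, Dlst and Fh1, 27.3% of members, and the 1 was Cpt1b. In whole tissue a lower level may come from fewer cells of a type or from less RNA per cell, and these cannot be told apart.

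**Figure D2:**
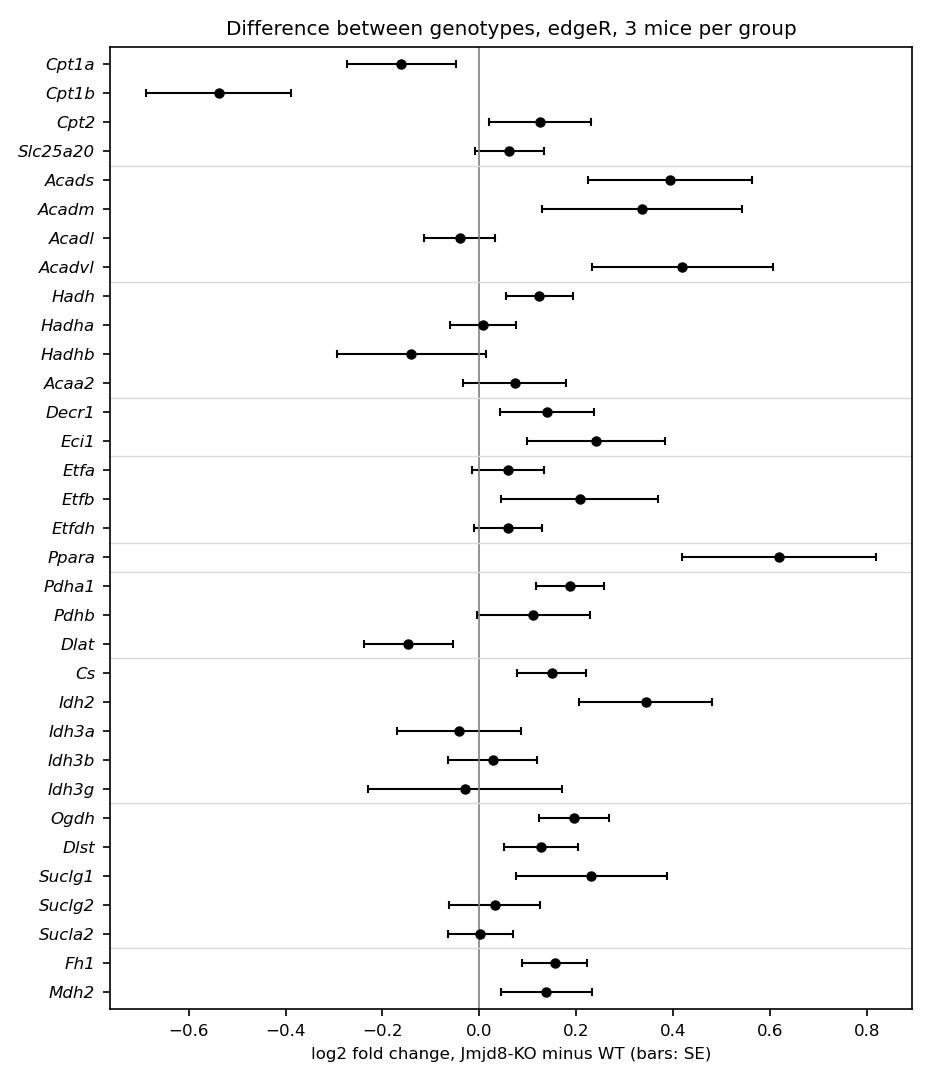
Log2 fold change of each gene, Jmjd8-KO minus WT, from edgeR with 3 mice per group (bars are SE, horizontal lines part the groups by role). Most points lie between -0.2 and 0.45, with Cpt1b at -0.54 and Ppara at 0.62, and none passed the test.

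Ppara encodes PPAR alpha, a nuclear receptor that fatty acids activate and that switches on fat oxidation genes in liver. It had 11.3, 8.35 and 11.3 CPM in the Jmjd8-KO mice, against 5.92, 8.37 and 5.90 CPM in the WT mice. Jmjd8-KO replicates 1 and 3 were above every WT mouse, while Jmjd8-KO replicate 2 and WT replicate 2 were level. Its fold change was 0.62 on the log2 scale (SE 0.200, adjusted p = 0.164). Without Jmjd8-KO replicate 2 it was 0.75 (adjusted p = 0.04996), and without WT replicate 1 it was 0.52 (adjusted p = 0.374). Ppara spans 85734983 to 85802819 of chromosome 15, plus strand (GRCm38, GENCODE M21).

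The carnitine shuttle held the member with the lowest fold change. Cpt1b had 8.75, 9.35 and 6.86 CPM in the Jmjd8-KO mice, against 13.2, 11.4 and 11.7 CPM in the WT mice, so that the groups did not overlap. Its fold change was -0.54 on the log2 scale (SE 0.150, adjusted p = 0.125), and it was -0.63 without Jmjd8-KO replicate 2 (adjusted p = 0.0423). Summed skeletal muscle markers, which do not include this muscle-type enzyme, stood at 41.1 to 55.1 CPM in Jmjd8-KO and 61.5 to 66.3 CPM in WT, and their part in the result was not tested. The largest part of that sum was Acta1, skeletal alpha-actin, at 33.9, 24.1 and 40.2 CPM in Jmjd8-KO and 42.3, 49.5 and 47.6 CPM in WT, while Ckm, the muscle creatine kinase, was at or below 0.158 CPM in every library. None of the 6 tested muscle markers passed, and their log2 fold changes were positive in 3 and negative in 3, with a median of -0.05. Cpt1b lies on the minus strand of chromosome 15 from 89416405 to 89425863, and 81.4% of its exon bases are shared on the same strand with Gm44502, a gene model that is itself listed. Gm44502 had 41.2, 47.1 and 38.3 CPM in Jmjd8-KO and 52.3, 48.4 and 45.8 CPM in WT, so the count of Cpt1b depends on how reads in shared exons were assigned, which no label or header states.

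The liver-type Cpt1a, which sets the rate of entry into mitochondria where it predominates, stood at 37.2 ± 5.40 RPKM in Jmjd8-KO and 43.5 ± 1.28 RPKM in WT. Its counts were 189, 148 and 193 CPM in Jmjd8-KO and 189, 201 and 203 CPM in WT (log2 fold change of -0.16, SE 0.112, adjusted p = 0.465). Jmjd8-KO replicate 2 was the lowest of the 6 mice. Cpt2, the inner-membrane transferase, had 116, 95.9 and 123 CPM in Jmjd8-KO and 98.8, 108 and 101 CPM in WT (log2 fold change of 0.12, SE 0.105, adjusted p = 0.542). Again Jmjd8-KO replicate 2 was the lowest, while the other knockout mice were the highest. Slc25a20, the carnitine-acylcarnitine translocase between them, had a log2 fold change of 0.06 and 67.0 to 75.3 CPM over all 6 mice.

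The acyl-CoA dehydrogenases, which catalyse the first oxidation for different chain lengths, included 3 of the 4 members with the highest coefficients of variation between knockout mice, Acadm (31.8%), Acadvl (29.0%) and Acads (25.5%), beside Idh3g (28.3%). Acadm had 335, 548 and 320.1 CPM in Jmjd8-KO, against 293, 329.9 and 330.1 CPM in WT (log2 fold change of 0.34, SE 0.206, adjusted p = 0.410). Jmjd8-KO replicate 2 alone was far above the WT range, and the other knockout mice were close to it. Acads, the short-chain enzyme, had 102, 153 and 99.2 CPM in Jmjd8-KO, against 85.1, 95.2 and 88.9 CPM in WT (log2 fold change of 0.39, SE 0.170, adjusted p = 0.268). Acadvl, the very-long-chain enzyme, had 112, 180.0 and 113 CPM in Jmjd8-KO, against 97.5, 100.2 and 105 CPM in WT (log2 fold change of 0.42, SE 0.187, adjusted p = 0.281). For both, the groups did not overlap. Without Jmjd8-KO replicate 2 the log2 fold changes were 0.04 for Acadm, 0.17 for Acads and 0.15 for Acadvl, smaller in each case than over all mice. Acadl, the long-chain enzyme, had 256, 228 and 248 CPM in Jmjd8-KO and 248, 249.4 and 255 CPM in WT (log2 fold change -0.04), with Jmjd8-KO replicate 2 the lowest. Of the exon bases of Acadvl, 42.9% are shared with Dvl2 on the opposite strand, and no label or header states the strand setting of the counts.

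The RefSeq promoter window of Acadm, from 250 bases before its start to 50 after, is shown because it holds 1 of the only 2 matches to a motif tied to oxidative genes (GRCm38.p6, minus strand, chr3:153944594-153944893). Capitals mark the single match to AAGGTCA, the extended half-site known for estrogen-related receptors, here on the opposite strand.
Acadm: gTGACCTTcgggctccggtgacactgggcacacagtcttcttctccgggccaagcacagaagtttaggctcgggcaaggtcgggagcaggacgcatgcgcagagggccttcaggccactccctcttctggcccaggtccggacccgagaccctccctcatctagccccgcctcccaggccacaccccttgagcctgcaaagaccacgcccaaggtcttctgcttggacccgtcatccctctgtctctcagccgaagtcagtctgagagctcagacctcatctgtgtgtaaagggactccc
The motif was searched on both strands after the longer TNAAGGTCA, which contains it, and the direct repeat bound by PPARs (DR1). Those had matched 0 of the 34 windows of the 29 members in the table. Over all 32851 windows TNAAGGTCA matched 1.28% and the direct repeat 0.0396%, shares too small for 34 windows to show a lack. AAGGTCA was in 2 of these 34 windows, or 5.88%, against 4.72% of 32851 windows of the same length over all genes.

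None of the 4 genes of the later steps of beta-oxidation passed. Hadh, the short-chain hydroxyacyl-CoA dehydrogenase of the second oxidation, had 276, 262 and 269 CPM in Jmjd8-KO, against 236, 254 and 250.2 CPM in WT. The groups did not overlap (log2 fold change 0.12, SE 0.0687, adjusted p = 0.367). Hadha and Hadhb encode the alpha and beta subunits of the trifunctional protein, which carries out these steps on long chains. Hadha had 316, 316 and 323 CPM in Jmjd8-KO, against 304, 317 and 329.7 CPM in WT (log2 fold change of 0.01, SE 0.0679). Hadhb had 29.1, 20.6 and 28.8 CPM in Jmjd8-KO, against 26.0, 28.8 and 31.6 CPM in WT (log2 fold change of -0.14, SE 0.155). Per length, Hadhb stood at 0.152 ± 0.0275 of Hadha in Jmjd8-KO and 0.168 ± 0.00971 in WT, and at 0.120 in Jmjd8-KO replicate 2, the lowest of the 6. Acaa2, the thiolase for shorter chains, had 113, 144 and 115 CPM in Jmjd8-KO and 114, 121 and 118 CPM in WT (log2 fold change 0.07).

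Hadha and Hadhb are transcribed in opposite directions from starts 273 bases apart on chromosome 5, at 30154980 (minus) and 30155253 (plus) in RefSeq. Their promoter windows share 228 bases, which are shown because partner subunits with unequal RPKM have this stretch of DNA in common. How reads that map to several places were counted is not stated, and its part in the ratio of Hadhb to Hadha was not tested. The sequence is the Hadhb window, plus strand, chr5:30155003-30155302 of GRCm38.p6, with the shared bases in capitals.
Hadhb: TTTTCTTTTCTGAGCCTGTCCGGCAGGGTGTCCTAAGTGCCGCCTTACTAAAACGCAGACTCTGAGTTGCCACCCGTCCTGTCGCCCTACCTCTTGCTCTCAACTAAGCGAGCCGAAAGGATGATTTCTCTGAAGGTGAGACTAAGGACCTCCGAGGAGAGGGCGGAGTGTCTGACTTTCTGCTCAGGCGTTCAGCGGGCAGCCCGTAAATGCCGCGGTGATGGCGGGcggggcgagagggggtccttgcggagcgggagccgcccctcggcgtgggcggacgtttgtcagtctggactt

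Unsaturated chains need auxiliary enzymes, and saturated and unsaturated chains alike need the electron transfer flavoprotein. Eci1, an enoyl-CoA isomerase, had 68.1, 93.5 and 65.9 CPM in Jmjd8-KO, against 61.5, 68.8 and 62.3 CPM in WT (log2 fold change of 0.24, SE 0.143, adjusted p = 0.397). Decr1, the dienoyl-CoA reductase, had 218, 262 and 217 CPM in Jmjd8-KO, against 199, 216 and 218 CPM in WT (log2 fold change of 0.14, SE 0.0971, adjusted p = 0.464). In both the value of Jmjd8-KO replicate 2 was the highest of the 6, and the other knockout mice lay within the WT range or within 1 CPM of it. Etfb, the beta subunit of the flavoprotein, had 106, 159 and 107 CPM in Jmjd8-KO, against 103, 109.6 and 109 CPM in WT (log2 fold change of 0.21, SE 0.162, adjusted p = 0.511), and had a log2 fold change of -0.01 without Jmjd8-KO replicate 2. Etfa, its alpha subunit, and Etfdh, the oxidoreductase that takes its electrons, had log2 fold changes of 0.06 each, with 141 to 159.7 CPM and 98.1 to 111 CPM over the 6 mice. Per length, Etfb stood at 1.61 of Etfa in Jmjd8-KO replicate 2, at 1.12 and 1.22 in the other Jmjd8-KO mice, and at 1.11 to 1.26 in the WT mice. Of the exon bases of Etfb, 53% are shared on the same strand with Gm45233, a gene model that is not listed. How reads in those bases were assigned is not stated.

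Pyruvate dehydrogenase joins glycolysis to the cycle. Pdha1, the regulated alpha subunit of its first enzyme, had 254, 248 and 242 CPM in Jmjd8-KO, against 205, 225 and 223 CPM in WT, with no overlap (log2 fold change 0.19, SE 0.0706, adjusted p = 0.217). Its partner Pdhb had 71.9, 93.2 and 72.0 CPM in Jmjd8-KO and 72.3, 77.0 and 70.3 CPM in WT (log2 fold change 0.11), and Dlat, the acetyltransferase core, had 136, 115 and 132 CPM in Jmjd8-KO and 138, 135 and 151 CPM in WT (log2 fold change of -0.15, SE 0.0917, adjusted p = 0.417). These subunits of one complex had log2 fold changes of both signs. Of the exon bases of Pdha1, 16.1% are shared with Map3k15 on the opposite strand.

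At the entry of the cycle, Cs had 539.8, 509 and 554 CPM in Jmjd8-KO, against 465, 494 and 486 CPM in WT, again with no overlap (log2 fold change 0.15, SE 0.0716, adjusted p = 0.306). Isocitrate is oxidised by the NADP-dependent Idh2 or by the NAD-dependent Idh3, made of the catalytic Idh3a with Idh3b and Idh3g. Idh2 had 97.2, 130.4 and 90.9 CPM in Jmjd8-KO, against 81.7, 84.5 and 84.8 CPM in WT (log2 fold change of 0.34, SE 0.137, adjusted p = 0.238). All 3 knockout mice were above the WT mice, by the most in Jmjd8-KO replicate 2, without which the log2 fold change was 0.17. The Idh3 subunits did the reverse in that mouse, a pattern picked after the values were seen. Idh3g had 147, 86.0 and 149.98 CPM in Jmjd8-KO, against 132, 129.9 and 129 CPM in WT. Idh3a had 267, 193 and 259.9 CPM in Jmjd8-KO, against 244, 246 and 252 CPM in WT. Idh3b had 115, 96.4 and 116 CPM in Jmjd8-KO, against 106, 103 and 112 CPM in WT. For each subunit, Jmjd8-KO replicates 1 and 3 were above all WT mice and Jmjd8-KO replicate 2 was below them. The log2 fold changes over all mice were thus near 0 (-0.03 for Idh3g, -0.04 for Idh3a, 0.03 for Idh3b), and without Jmjd8-KO replicate 2 they were 0.19 (adjusted p = 0.0358), 0.09 (adjusted p = 0.219) and 0.11 (adjusted p = 0.212).

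Ogdh, the first enzyme of the 2-oxoglutarate dehydrogenase complex, had 488, 479.7 and 481 CPM in Jmjd8-KO, against 399.6, 418 and 447 CPM in WT. The knockout mice lay within a narrow range above all WT mice (log2 fold change 0.20, SE 0.0728, adjusted p = 0.212). Dlst, the succinyltransferase of the same complex, had 162, 183 and 166 CPM in Jmjd8-KO, against 151, 160.4 and 156 CPM in WT (log2 fold change of 0.13, SE 0.0757, adjusted p = 0.397). Here too the groups did not overlap. Succinyl-CoA ligase pairs the alpha subunit Suclg1 with the ADP-forming Sucla2 or the GDP-forming Suclg2. Suclg1 had 77.7, 111 and 73.6 CPM in Jmjd8-KO, against 74.1, 74.9 and 74.8 CPM in WT (log2 fold change of 0.23, and 0.02 without Jmjd8-KO replicate 2). Suclg2 and Sucla2 had log2 fold changes of 0.03 and 0.00202. Fh1, fumarase, had 84.7, 82.4 and 81.9 CPM in Jmjd8-KO, against 72.6, 72.8 and 78.2 CPM in WT, with no overlap (log2 fold change 0.16, SE 0.0677, adjusted p = 0.271). Mdh2 had 225, 280.1 and 241 CPM in Jmjd8-KO, against 230.5, 222 and 225 CPM in WT (log2 fold change of 0.14, adjusted p = 0.457).

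One of the RefSeq start sites of Ogdh had the other match to AAGGTCA, at position -5 from the start, and its window is shown with the match in capitals on the opposite strand (GRCm38.p6, plus strand, chr11:6291920-6292219).
Ogdh: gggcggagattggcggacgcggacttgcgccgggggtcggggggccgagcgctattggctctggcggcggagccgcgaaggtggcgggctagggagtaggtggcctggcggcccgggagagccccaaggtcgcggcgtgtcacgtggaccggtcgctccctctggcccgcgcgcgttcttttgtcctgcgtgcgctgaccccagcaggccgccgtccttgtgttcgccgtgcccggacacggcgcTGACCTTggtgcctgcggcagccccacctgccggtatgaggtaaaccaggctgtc

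**Figure D3:**
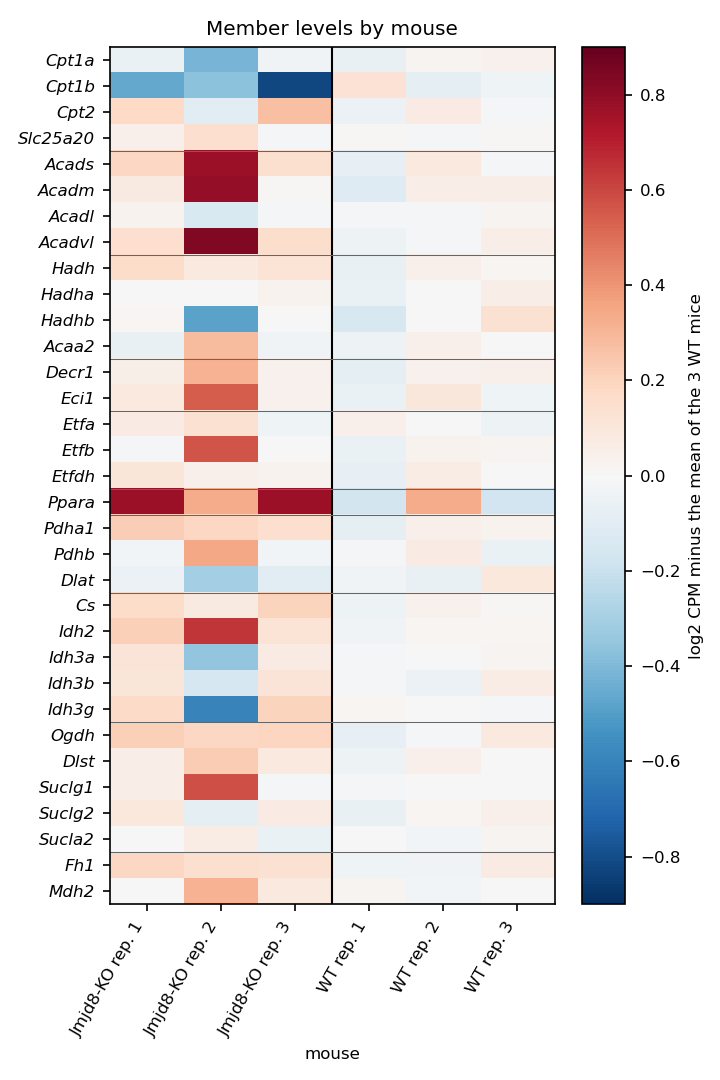
Log2 CPM of each gene in each mouse minus the mean of the 3 WT mice (Jmjd8-KO mice left of the line, WT mice right). Jmjd8-KO replicate 2 lies above the WT mean in Acadm and Acadvl and below it in Idh3g and Hadhb, apart from the other knockout mice, while Cpt1b lies below it in all 3 knockout mice.

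Across the members, Jmjd8-KO replicate 2 held the highest value of the 6 mice in 15 genes and the lowest in 9. It differed from the mean of Jmjd8-KO replicates 1 and 3 by more than 0.25 on the log2 scale in 19 of 33 members, from -0.79 for Idh3g to 0.74 for Acadm. The median size of this difference was 0.269, against 0.266 over all tested genes. Without this mouse the log2 fold change was -0.05 for Cpt1a, 0.22 for Cpt2, 0.05 for Decr1, 0.06 for Eci1, -0.02 for Pdhb, -0.07 for Dlat, 0.07 for Dlst and 0.04 for Mdh2. It was 0.02 for Slc25a20, 0.02 for Etfa, 0.01 for Hadhb and -0.05 for Acaa2. Jmjd8-KO replicates 1 and 3 differed from each other by more than 0.25 in 1 member, Cpt1b (0.35). WT replicate 1 held the lowest value in 15 members and lay below the mean of WT replicates 2 and 3 in 28 of 33, with a median difference of -0.07 on the log2 scale. For WT replicate 1 no share over all tested genes is given, so these counts do not show a trait of the members. The coefficient of variation between mice had a median over members of 11.4% in Jmjd8-KO and 4.01% in WT.

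Without Jmjd8-KO replicate 2, 3 members passed, Ppara and Idh3g higher and Cpt1b lower, in a fit where 9.34% of all genes passed. Without WT replicate 1, 0 members passed by edgeR, where 0.118% of all genes passed. Without both libraries 6 members passed, Ppara (0.67), Cpt2 (0.20), Idh3g (0.20), Ogdh (0.16) and Cs (0.16) higher and Cpt1b (-0.56) lower, on the log2 scale. That is 18.2% of members, against 19.8% of all genes in the same fit. The median log2 fold change of fat oxidation members was 0.07 over all mice and 0.00298 without both. For pyruvate dehydrogenase and TCA cycle members it was 0.13 over all mice and 0.08 without both. Scaling by library size alone gave -0.0042 for fat oxidation and 0.05 for the cycle, and moved the median of all genes by a like amount, to -0.08.

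**Figure D4:**
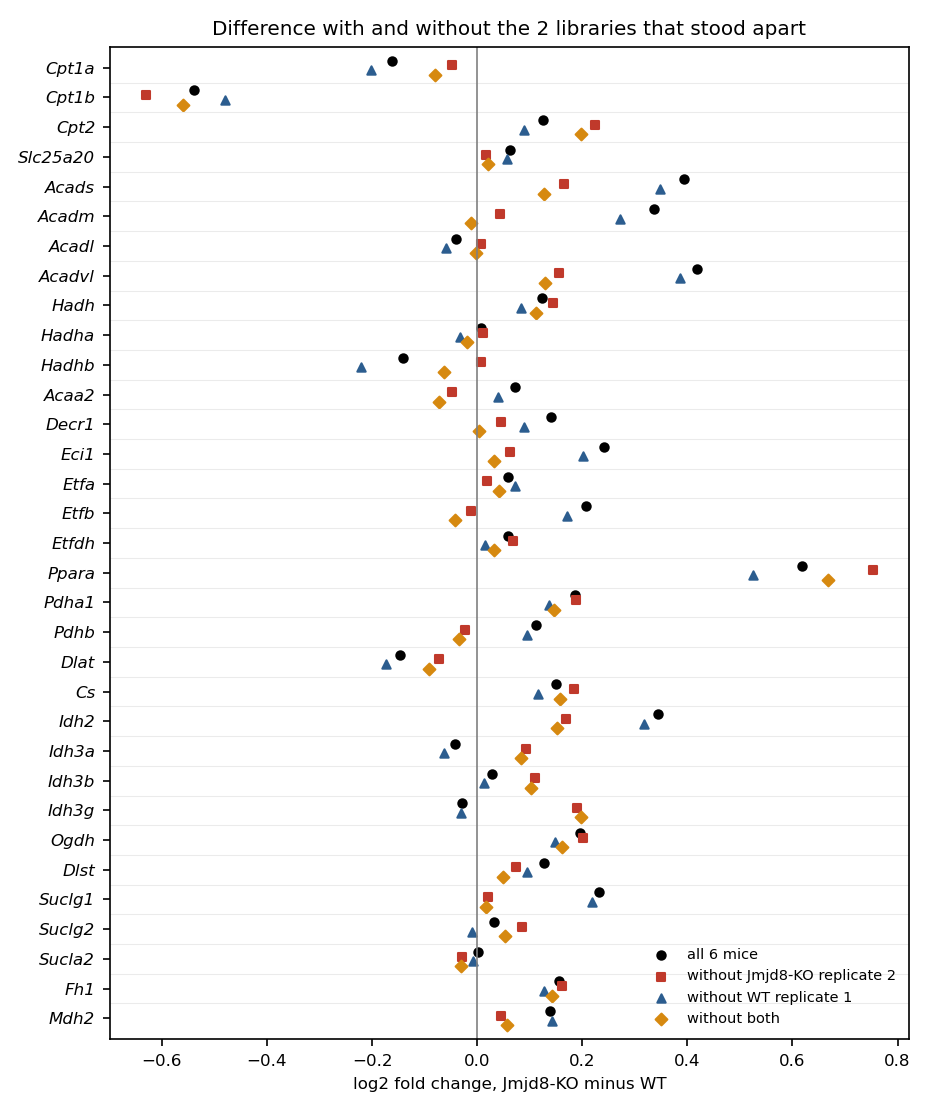
Log2 fold change of each gene, Jmjd8-KO minus WT, over all 6 mice and with 1 or both of the libraries that stood apart left out. Leaving out Jmjd8-KO replicate 2 moves Acadm, Acads, Acadvl, Idh2 and Suclg1 towards 0 and Idh3g to 0.19, while Ppara and Cpt1b stay at the ends.

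Ratios between enzymes within a mouse do not depend on library scaling. Cpt2 stood at 1.12, 1.18 and 1.17 times Cpt1a in RPKM in the Jmjd8-KO mice, against 0.956, 0.978 and 0.911 in the WT mice. The groups did not overlap, and the log2 ratio was 0.29 higher in Jmjd8-KO (exact two-sided permutation p = 0.1, the smallest that 3 against 3 mice allow, and 0.25 adjusted over 5 ratios). Idh2 stood at 0.513, 0.955 and 0.494 of Idh3a in Jmjd8-KO, against 0.473, 0.484 and 0.476 in WT (exact permutation p = 0.1, adjusted 0.25), with Jmjd8-KO replicate 2 alone far from the rest. Cpt1a stood at 14.6, 10.7 and 19.0 times Cpt1b in Jmjd8-KO, against 9.65, 11.9 and 11.6 times in WT (exact permutation p = 0.3), subject to the shared exons of Cpt1b. Suclg2 stood at 0.0736 to 0.0890 of Sucla2 in Jmjd8-KO and 0.0777 to 0.0839 in WT (exact permutation p = 0.7), so the ADP-forming transcript was the more abundant in both groups. For Acadl over Acadm the values were 0.811, 0.440 and 0.819 in Jmjd8-KO, against 0.896, 0.800 and 0.818 in WT (exact permutation p = 0.5). None of the 5 ratios could reach a p under 0.05 in this design.

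Of 66 other genes of these pathways, 63 were tested, and 4 rose and 0 fell, where 0.789% of all tested genes rose and 1.33% fell. Without both libraries that stood apart 18 were higher and 3 lower, where 10.1% of all genes were higher and 19.8% passed in either direction. Acad11, an acyl-CoA dehydrogenase family member for very long chains, had 212, 199 and 198 CPM in Jmjd8-KO, against 135, 146 and 158 CPM in WT (log2 fold change of 0.47, SE 0.0812, adjusted p = 0.0413). It was the 1 of 9 other beta-oxidation genes to pass. Pcx, pyruvate carboxylase, which refills the cycle with oxaloacetate, had 1153, 1324 and 1185 CPM in Jmjd8-KO, against 770.5, 876 and 889 CPM in WT (log2 fold change of 0.53, SE 0.0939, adjusted p = 0.0421), the 1 of 18 other pyruvate and TCA cycle genes to pass. Nrip1, the corepressor RIP140, known to restrain oxidative genes in fat, had 71.1, 69.1 and 62.8 CPM in Jmjd8-KO, against 36.5, 49.1 and 41.3 CPM in WT (log2 fold change of 0.68, SE 0.120, adjusted p = 0.0421). It was the 1 of 13 regulators to pass. Ucp3, a mitochondrial carrier and PPAR alpha target, had 33.9, 32.2 and 31.9 CPM in Jmjd8-KO, against 23.1, 24.9 and 24.1 CPM in WT (log2 fold change of 0.44, SE 0.0804, adjusted p = 0.0458), the 1 of 12 tested PPAR alpha targets outside the members to pass. In all 4 genes the groups did not overlap. Leaving out a single mouse ended each of the 4 calls, at adjusted p from 0.0891 to 0.216, except for Jmjd8-KO replicate 2, without which all 4 passed. Without both libraries that stood apart all 4 passed as well, with log2 fold changes of 0.43 for Acad11, 0.41 for Pcx, 0.57 for Nrip1 and 0.43 for Ucp3.

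In 2 of the lists no gene passed. Among 7 genes of fatty acid activation and carnitine, the smallest p was that of Acacb, the acetyl-CoA carboxylase whose product malonyl-CoA inhibits CPT1, with 195, 281 and 179 CPM in Jmjd8-KO, against 135, 145 and 160.4 CPM in WT (log2 fold change of 0.57, SE 0.173, adjusted p = 0.144). It passed without Jmjd8-KO replicate 2 (0.35, adjusted p = 0.0461) and did not without WT replicate 1 (0.51, adjusted p = 0.354). Among 6 genes of citrate export and the cytosolic counterparts, it was that of Aco1, cytosolic aconitase, with 222, 210.4 and 225 CPM in Jmjd8-KO, against 166, 194 and 192 CPM in WT (log2 fold change of 0.25, SE 0.0847, adjusted p = 0.183). The median log2 fold changes of the lists, in the order named, were 0.32, 0.24, 0.05, -0.02, 0.11 and 0.08, against -0.01 over all tested genes.

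The summed markers of several cell types did not overlap between the genotypes. The 13 adipocyte markers summed to 40240.5 to 44294.9 CPM in Jmjd8-KO and 35283 to 38176.5 CPM in WT. Of the 13, 2 passed as higher (Retn and Slc2a4) and 0 as lower. The log2 fold change was positive in 12 and negative in Lep (-0.20, adjusted p = 0.216), where the groups did not overlap. The 14 macrophage markers summed to 3234 to 3664 CPM in Jmjd8-KO and 4618 to 4747 CPM in WT, with 7 lower and 0 higher. The 33 members summed to 5358 to 5730.2 CPM in Jmjd8-KO and 4911 to 5173 CPM in WT. Set against the adipocyte markers, the members' sum was 13.1%, 12.9% and 13.3% for the Jmjd8-KO mice, against 13.9%, 13.4% and 13.9% for the WT mice. This share, which library scaling does not change, did not overlap between the groups, and with TMM scaling neither did the members' sum. Scaled to total counts the members' sum did overlap, at 5283, 5531 and 5239.8 CPM in Jmjd8-KO and 5099, 5195 and 5296 CPM in WT, and so did their summed RPKM, at 2221, 2429 and 2214 RPKM for the Jmjd8-KO mice, against 2163, 2191 and 2227 RPKM for the WT mice. The 8 mesothelial markers summed to 309.5 to 337 CPM in Jmjd8-KO and 154 to 212 CPM in WT, with 3 higher and 0 lower. Of 7 markers of epididymal epithelium, 6 or more were at 0 in each Jmjd8-KO library and 5 in each WT library. The 1 that was tested, Crisp1, passed as lower (log2 fold change of -6.63, adjusted p = 0.0364). It had few reads, with 0 counts in each Jmjd8-KO library and 12, 16 and 10 counts in the WT libraries. The -6.63 is therefore not a measured size, as no read was seen in Jmjd8-KO. The part of these cell types in the members' values was not tested.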

How the data were processed

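RNA was sequenced from epididymal fat of 3 Jmjd8-KO and 3 WT mice, each from its own animal according to the design text. The submitters' processing notes name STAR, featureCounts and the mm10 build. Versions, annotation, strand and multi-mapping settings are not stated there. The table the authors deposited gives raw counts per gene and RPKM values. RPKM was used for levels between genes and for ratios, untested except for 5 ratios.

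Genotype was tested with edgeR 4.0.16 in R 4.3.3 on the deposited counts of the whole table: filterByExpr with a minimum count of 10, TMM factors, glmQLFit and glmQLFTest, and Benjamini-Hochberg adjustment over 14322 genes at 0.05. CPM uses the TMM-scaled library sizes. Fold changes are log2, Jmjd8-KO minus WT. Each SE is the size of that change divided by root F. Alternatives used DESeq2 1.42.0 and limma 3.58.1. Members and lists were chosen with earlier results of these data known. Within each role, the members with the smallest p and the highest RPKM are given by mouse, with others picked after their values were seen (Cpt1a, Acadvl, Acadl, the trifunctional protein, Acaa2, Pdhb, Dlat, Idh3, Dlst, Suclg1). Positions are GENCODE M21 on GRCm38, the assembly of mm10. Promoters are RefSeq, GRCm38.p6, with windows found for 29 of 33 members.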

Additional observations from a re-analysis of the deposited data

How the results depend on the processing

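The alternatives were listed with earlier results of these data known, and those for the genes outside the members were added after the data were seen. The number of genes passing was 156 with no filter on low counts, 1039 with DESeq2, 2030 with limma-voom and 2833 without both libraries that stood apart, against 304, and 0 to 1351 with a single mouse left out. Members passing numbered 2 with limma-voom, 6 without both libraries, and 0 to 3 with a single mouse left out. The median log2 fold change of pyruvate dehydrogenase and TCA cycle members was 0.051 with library size alone, 0.072 with limma-voom, 0.083 without both libraries, and 0.094 to 0.15 with a single mouse left out. That of fat oxidation members was -0.0042 with library size alone, which moved the median of all genes to -0.08. With the replicate number as a block, 5 genes passed, 0 members among them. In that fit Acad11, Pcx, Nrip1 and Ucp3 had adjusted p of 0.139, 0.0999, 0.105 and 0.16. No pairing by replicate number was seen: deviations of same-numbered mice correlated at -0.018, -0.029 and 0.0082. With 3 mice per group these values cannot exclude a pairing. With no filter on low counts these 4 genes had adjusted p of 0.0587 to 0.0663. The log2 fold changes of some members took the other sign, Acadm from 0.34 and Etfb from 0.21 among them, and Idh3g passed as higher where Jmjd8-KO replicate 2 was left out; the cause was not tested. With library size alone the values were -0.015 for Slc25a20, -0.069 for Hadha, -0.0042 for Acaa2, -0.018 for Etfa, -0.017 for Etfdh, -0.048 for Idh3b, -0.044 for Suclg2 and -0.075 for Sucla2. Without Jmjd8-KO replicate 2 and WT replicate 1 together the values were -0.012 for Acadm, -0.019 for Hadha, -0.072 for Acaa2, -0.042 for Etfb, -0.034 for Pdhb, 0.083 for Idh3a, 0.20 for Idh3g and -0.031 for Sucla2. With limma-voom the values were -0.0043 for Hadha, -0.046 for Acaa2, -0.0081 for Etfb, -0.011 for Pdhb, 0.072 for Idh3a, 0.17 for Idh3g and -0.031 for Sucla2. With the stricter filter the values were -0.0023 for Sucla2. With a single mouse left out they ran from -0.077 to 0.0074 for Acadl, from -0.032 to 0.037 for Hadha, from -0.22 to 0.0072 for Hadhb, from -0.047 to 0.14 for Acaa2, from -0.012 to 0.31 for Etfb, from -0.024 to 0.18 for Pdhb, from -0.13 to 0.094 for Idh3a, from -0.015 to 0.11 for Idh3b, from -0.16 to 0.19 for Idh3g, from -0.0099 to 0.085 for Suclg2 and from -0.030 to 0.033 for Sucla2. Counts of 117 to 215 limit the precision of Ppara, and 118 to 267 that of Cpt1b.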
